A study of Homo sapiens with 4 samples.

Results

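Cadherins, protocadherins and catenins were followed in MDA-MB-231 cells after transduction with a short hairpin RNA against TRPM7. A probe belonged to the set if its gene symbol in the deposited signal table was CDH or PCDH with a number, a member of the PCDHA, PCDHB or PCDHG clusters, or one of the catenin symbols CTNNA1, CTNNA2, CTNNB1, CTNND1, CTNND2, CTNNAL1 and JUP. The rule used names only and no measured value, though it was chosen with earlier results of these data known. It gave 190 probes of 104 symbols, out of 47323 probes on each array.

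MDA-MB-231 is an established human breast cancer line, here from the American Type Culture Collection, grown in DMEM with Glutamax and serum. One group (shT7#1) held 2 arrays of cells transduced with a TRPM7 hairpin, and the other (shCntrl) held 2 arrays of cells transduced with a scrambled hairpin. Both groups are therefore transduced cells, and only 1 TRPM7 hairpin is given, so effects of TRPM7 loss and of that hairpin itself cannot be told apart. Nothing in the labels ties the replicates to separate cultures, and the p-values therefore reflect a spread between arrays that may be only technical. The series title names TRPM7, an ion channel with a kinase domain, the mesenchymal state of breast cancer cells, tension and SOX4.

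Classical cadherins are calcium-dependent adhesion proteins that join neighbouring cells at adherens junctions. Their tails bind beta-catenin or plakoglobin, which bind alpha-catenin and through it actin, while p120-catenin holds the cadherin at the membrane. Loss of E-cadherin with gain of N-cadherin is a textbook mark of the epithelial-mesenchymal transition. Protocadherins are a larger branch with other tails, and the clustered PCDHA, PCDHB and PCDHG genes are best known from neurons, where single cells use different members.

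On the shT7#1 arrays 19492 and 19938 of all probes were above background, against 19779 and 20261 on the shCntrl arrays (detection p below 0.05 against negative control beads). The single TRPM7 probe was above background on 0 of 4 arrays, with log2 signals of 4.47 and 4.56 in shT7#1 and of 4.60 and 4.52 in shCntrl, so the arrays give no check of the knockdown. Of 8 markers of mesenchymal-like breast lines 7 were tested, VIM and CD44 among them, and SPARC was above background on at most 1 array. The summed log2 signal of the 7 tested markers was 88.4 and 88.1 in shT7#1, against 88.9 and 89.4 in shCntrl. Among luminal markers ESR1, PGR and FOXA1 were above background on 0 arrays, while EPCAM, ERBB2, GATA3, KRT8, KRT18 and KRT19 were tested. Of 4 leukocyte markers, PTPRC and CD3E were above background on 0 arrays and CD14 and CD68 on all 4. Of 4 endothelial markers, KDR, VWF and CDH5 were above background on 0 arrays and PECAM1 on 3. Of 4 fibroblast markers, DCN was above background on 0 arrays, LUM on 3, and COL1A2 and PDGFRB on all 4. The summed log2 signal of the 3 tested fibroblast markers was 17.4 and 18.0 in shT7#1, against 18.3 and 19.0 in shCntrl, and COL1A2 lay at -0.72 log2 units (limma, adjusted p = 0.0544). None of the tested markers was called by limma, where the lowest adjusted p was 0.0513, for the luminal keratin KRT19, which lay lower on both shT7#1 arrays. The summed log2 signal of the tested luminal markers was 54.2 and 53.7 in shT7#1, against 54.6 and 54.8 in shCntrl, and the part of these levels in the results below was not tested.

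Most of the family was not measurable in these cells. Of the 190 probes, 148 were above background on 0 arrays, 16 on 1, 7 on 2, 5 on 3 and 14 on all 4. A probe was tested if it was above background on at least 2 arrays, which 26 member probes passed, or 13.7%, where 43.0% of all probes passed. These stood for 21 of the 104 symbols, and a level near background does not show that the other 83 were not expressed. Catenins made up 10 of the 26 passing probes and the PCDHB cluster 6. By array, 21 and 23 member probes were above background in shT7#1, against 28 and 29 in shCntrl. For all probes these counts were 19492 and 19938, against 19779 and 20261. Where a signal is lower, fewer cells with a transcript and less of it in each cell cannot be told apart in RNA from whole cultures.

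**Figure D1:**
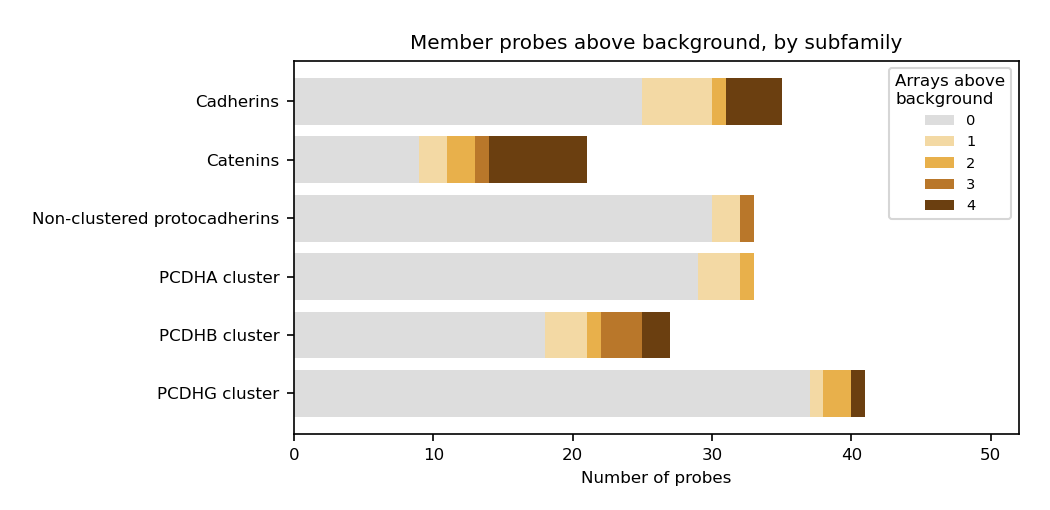
Number of member probes (x axis) in each subfamily, split by the number of arrays, 0 to 4, on which the probe was above background. Probes above background on all 4 arrays were found among cadherins (4), catenins (7), the PCDHB cluster (2) and the PCDHG cluster (1).

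None of the 21 tested genes passed the test between shT7#1 and shCntrl. The test was limma's moderated test with Benjamini-Hochberg adjustment over all 14731 genes, each at its brightest passing probe, at a threshold of 0.05, and it called 957 genes, or 6.50%, with 2.95% higher and 3.55% lower. Among the 21 genes 0 were called higher and 0 lower, while 9 had an unadjusted p under 0.05, which 25.9% of all tested genes had. Those 9 include PCDHB17P and PCDHGB1, which passed the filter through shCntrl alone. The adjusted p of the 21 genes lay between 0.0576 and 0.887, and nothing is read from the lowest, that of PCDHB17P. Among genes above background in both groups the lowest adjusted p by limma was 0.0726, for CDH11. Their differences were above 0 for 5 genes and below 0 for 16, with a median of -0.26 log2 units, beside -0.00 for all tested genes. Arrays of the groups did not overlap for 10 genes lower and 3 higher in shT7#1, where 28.2% and 27.5% of all tested genes separated in those directions. Of the 21 genes, 3 passed the filter through shCntrl alone and 0 through shT7#1 alone, which pulls the differences of tested genes downward. Over all 190 member probes with no filter the median difference was -0.01 log2 units, and 43 probes separated lower and 38 higher in shT7#1, beside 21.3% and 21.2% of all probes. Of these probes 148 were above background on 0 arrays, so that median could hardly leave 0. With detection required on all 4 arrays, 11 member genes were tested. Their median was -0.10 log2 units, beside 0.00 for all genes tested under that filter.

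**Figure D2:**
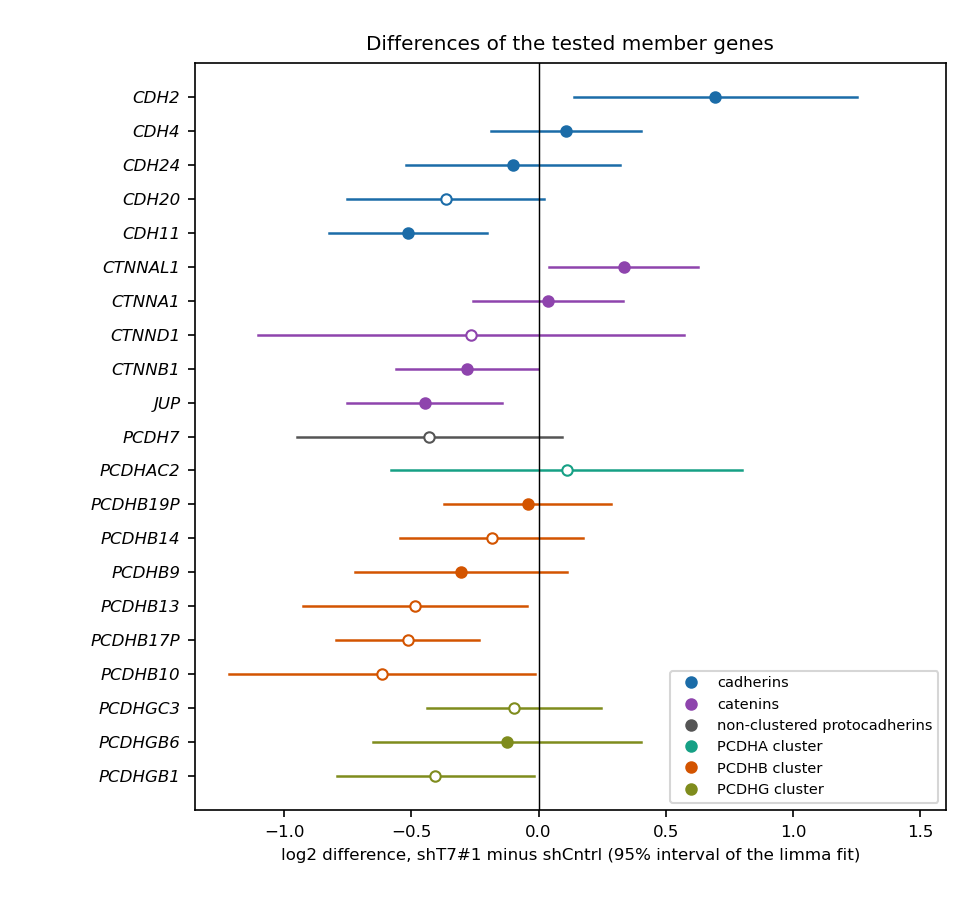
log2 difference of shT7#1 minus shCntrl (x axis) for the 21 tested member genes (n = 2 arrays a group), with lines for the 95% interval of the limma fit. Filled points mark genes above background on all 4 arrays. The differences run from -0.62 for PCDHB10 to 0.69 for CDH2, and no gene passed the adjusted threshold.

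E-cadherin and P-cadherin, the cadherins of epithelia, were not measurable in either group. The CDH1 probe, for E-cadherin, had log2 signals of 4.73 and 4.57 in shT7#1 and of 4.59 and 4.41 in shCntrl. All 4 values lay under the detection floor, the lowest normalised signal among detected probes of an array, which was between 4.92 and 4.98. The CDH3 probe, for P-cadherin, gave 4.74 and 4.36 in shT7#1 and 4.46 and 4.50 in shCntrl, likewise under the floor. No fold is given for either gene, and an increase that stays under this floor would not be seen here. The authors' deposited table lists CDH1 at 1.40-fold in shT7#1, from mean log2 values of 2.79 in shT7#1 and 2.31 in shCntrl, where genes under 2.5 in both groups had been removed.

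N-cadherin, encoded by CDH2 and typical of mesenchymal and neural cells, had log2 signals of 6.35 and 6.99 in shT7#1, against 5.91 and 6.05 in shCntrl. Both shT7#1 arrays lay above both shCntrl arrays, and the shT7#1 arrays differed from each other by more than the shCntrl arrays did. The means were 6.67 ± 0.45 in shT7#1 and 5.98 ± 0.10 in shCntrl (SD, n = 2 each), a difference of 0.69 ± 0.22 log2 units (SE; limma, adjusted p = 0.125). Its 95% interval ran from 0.14 to 1.25 log2 units. Without shT7#1 replicate 1 the difference was 1.01, and without shT7#1 replicate 2 it was 0.38. Of 15 other processings, CDH2 passed the threshold only with a variance trend and robust moderation (limma, adjusted p = 0.0348). That setting called 16.9% of all tested genes. The authors' deposited table gives CDH2 at 1.89-fold in shT7#1.

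CDH11, which encodes the mesenchymal and osteoblast cadherin OB-cadherin, stood on the opposite side. Its log2 signal was 9.78 and 9.60 in shT7#1, against 10.18 and 10.23 in shCntrl. The groups did not overlap, and the gene was above background on every array. The difference was -0.51 ± 0.13 log2 units (SE), a ratio of 0.701 (limma, adjusted p = 0.0726), and its 95% interval ran from -0.82 to -0.20. CDH11 passed the threshold under 4 of 15 other processings: without background correction (adjusted p = 0.00348), with a normexp offset of 50 (0.0153), with detection required on all 4 arrays (0.0411) and with a variance trend and robust moderation (0.00252). In that order these settings called 16.4%, 13.9%, 12.1% and 16.9% of all tested genes, against 6.50% in the reported fit. The authors' deposited table lists CDH11 at 0.70-fold in shT7#1.

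The other tested cadherins were CDH4, CDH24 and CDH20. CDH4, for R-cadherin, a classical cadherin first known from the retina, had 7.65 and 7.54 in shT7#1 and 7.53 and 7.44 in shCntrl. Its arrays separated by a narrow margin, and the difference was 0.11 log2 units, with an interval from -0.19 to 0.40. CDH24, a type II cadherin, had 5.02 and 5.15 in shT7#1 and 4.98 and 5.39 in shCntrl, and the groups overlapped. CDH20, another type II cadherin, was above background on both shCntrl arrays and on neither shT7#1 array. Its difference is therefore a bound, 1.16-fold lower in shT7#1 by the group means, in a direction that the filter fixed. That bound carries no error, and the interval of the fitted difference, from -0.75 to 0.02 log2 units, includes no change.

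**Figure D3:**
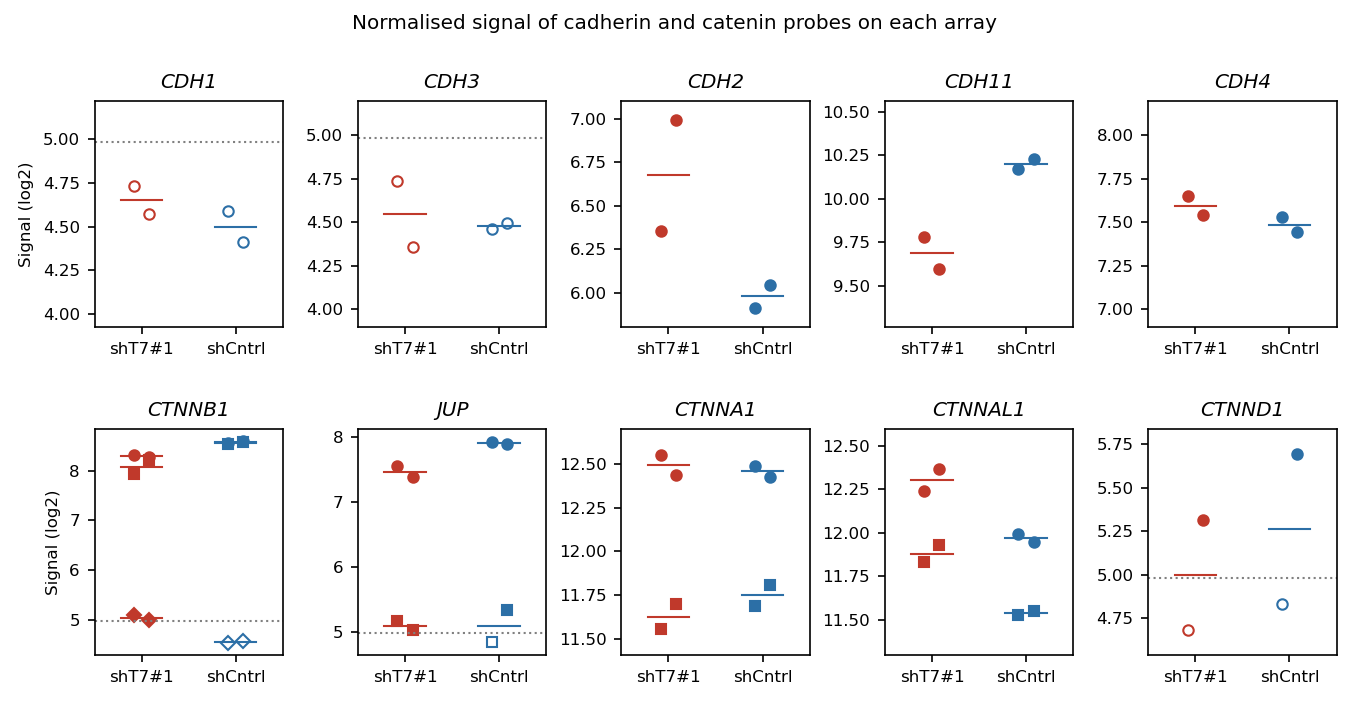
Normalised log2 signal (y axis, a separate range for each gene) of cadherin and catenin probes on each array, in shT7#1 (left, red) and shCntrl (right, blue), with lines for group means. Filled symbols are above background, a symbol shape stands for 1 probe, and the dotted line is the highest detection floor (4.98). CDH1 and CDH3 lie under the floor in both groups, while CDH2 is higher and CDH11 lower on both shT7#1 arrays.

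Among catenins, beta-catenin and plakoglobin, which share a binding site on the cadherin tail, lay lower on both shT7#1 arrays at their brightest probes. CTNNB1, for beta-catenin, which also carries Wnt signals to the nucleus, had log2 signals of 8.31 and 8.27 in shT7#1 and of 8.56 and 8.58 in shCntrl. The difference was -0.28 ± 0.11 log2 units (SE; limma, adjusted p = 0.188), and its interval ran from -0.56 to -0.00. A second bright CTNNB1 probe had 7.93 and 8.21 in shT7#1 and 8.54 and 8.56 in shCntrl, a difference of -0.48 with an adjusted p of 0.124 in a limma fit of each of the 20366 passing probes, of which 4.66% were called.

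Another passing CTNNB1 probe went the other way near background. It had 5.09 and 4.99 in shT7#1, both above background, and 4.54 and 4.57 in shCntrl, neither above background. Its difference is therefore a bound, 1.07-fold higher in shT7#1 by the group means and without an error. Since the probe passed the filter through shT7#1 alone, that direction was fixed by the filter. The other 4 CTNNB1 probes were above background on at most 1 array. Of these, the probe above background on 1 array had 5.09 and 4.86 in shT7#1 and 4.55 and 4.54 in shCntrl. At the rest the groups overlapped. In the authors' deposited table CTNNB1 stands at 1.21-fold, from mean log2 values of 3.20 in shT7#1 and 2.92 in shCntrl, which is opposite in sign to the bright probes. The authors' values by array were 3.49 and 2.90 in shT7#1 and 2.92 and 2.92 in shCntrl, so their groups overlapped.

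JUP encodes plakoglobin (gamma-catenin), the catenin shared by adherens junctions and desmosomes. Its brightest probe had log2 signals of 7.55 and 7.38 in shT7#1, against 7.92 and 7.90 in shCntrl. The groups did not overlap. The difference was -0.45 ± 0.12 log2 units (SE), a ratio of 0.734 (limma, adjusted p = 0.0915). A dimmer probe, above background on 3 arrays, had 5.16 and 5.02 in shT7#1 and 4.84 and 5.34 in shCntrl, so its groups overlapped. JUP passed the threshold without background correction (adjusted p = 0.0299), with an offset of 50 (0.0419) and with a variance trend and robust moderation (0.0390). In that order these settings called 16.4%, 13.9% and 16.9% of all tested genes. JUP did not pass when its probes were averaged, where the difference was -0.22.

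CTNNA1, for alpha-catenin, the link to actin that changes shape under force, had differences of opposite sign at its 2 probes. The brighter probe had 12.55 and 12.44 in shT7#1 and 12.49 and 12.43 in shCntrl, and the second probe had 11.56 and 11.70 in shT7#1 and 11.69 and 11.81 in shCntrl. Groups overlapped at both probes. The difference at the brighter probe was 0.04 ± 0.12 log2 units (SE), with an interval from -0.26 to 0.33, and at the second probe it was -0.12.

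CTNNAL1 encodes alpha-catulin, a relative of alpha-catenin. It had log2 signals of 12.24 and 12.37 in shT7#1, against 11.99 and 11.95 in shCntrl, and its second probe had 11.83 and 11.93 in shT7#1, against 11.52 and 11.55 in shCntrl. Both probes separated the groups in the same direction. The differences were 0.33 ± 0.12 and 0.34 ± 0.12 log2 units (SE), and the adjusted p was 0.151 for the gene and 0.169 for the second probe in the limma fit of each passing probe. CTNNAL1 passed without background correction (adjusted p = 0.0216) and with a variance trend and robust moderation (0.0124), where 16.4% and 16.9% of all tested genes were called.

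CTNND1, for p120-catenin, was near background and split by replicate number. Its single passing probe had 4.68 and 5.31 in shT7#1 and 4.83 and 5.69 in shCntrl, above background only on the second array of each group. The interval of its difference, from -1.10 to 0.57 log2 units, leaves the direction undetermined. CTNNA2 and CTNND2, the neural alpha- and delta-catenins, were above background on 0 arrays.

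**Figure D4:**
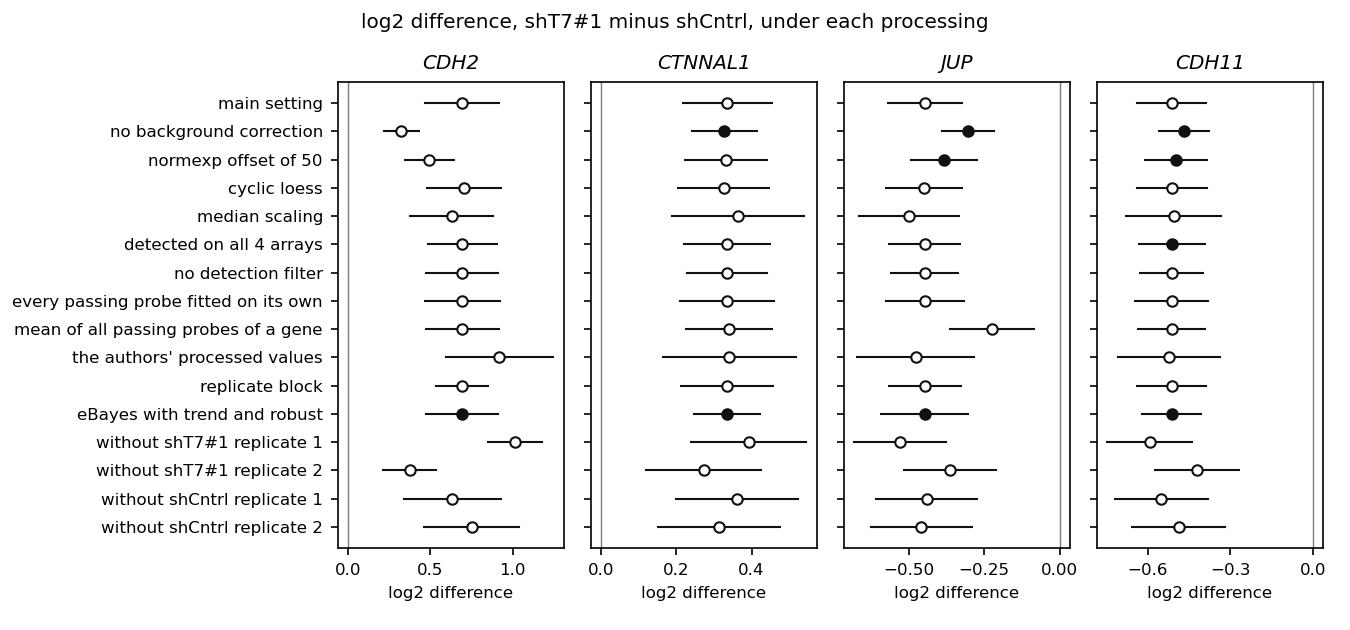
log2 difference of shT7#1 minus shCntrl (x axis, a separate range for each gene) with its standard error for CDH2, CTNNAL1, JUP and CDH11 under the reported setting and 15 others. Filled points passed the adjusted threshold of 0.05. The 4 genes are the members called under any setting, and all kept their sign. Their groups do not overlap, so leaving out 1 array could hardly turn it, and the other settings reuse the same 4 arrays.

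The clustered protocadherins lay near the detection limit. Of 15 PCDHA, 19 PCDHB and 23 PCDHG symbols, 1, 6 and 3 were tested. PCDHB probes above background numbered 3 and 4 on the shT7#1 arrays, against 8 and 7 on the shCntrl arrays. All 6 tested PCDHB genes had differences below 0, between -0.62 and -0.04 log2 units, and none was called by limma. Groups did not overlap for 4 of the 6, where 28.2% of all tested genes separated lower, and 3 had an unadjusted p under 0.05, where 25.9% of all tested genes did. PCDHB17P, which is in both counts, entered the test through shCntrl alone. PCDHB10, PCDHB13 and PCDHB14 were above background on both shCntrl arrays and on only 1 shT7#1 array. The counts over tested PCDHB genes therefore lean toward lower values in shT7#1. Over all 27 PCDHB probes with no filter, 9 lay lower on both shT7#1 arrays and 4 higher, with a median difference of -0.06 log2 units. That is 33.3% lower and 14.8% higher, beside 21.3% and 21.2% of all probes on the arrays. Of the 27 probes 18 were above background on 0 arrays, which holds their median near 0. PCDHB genes are close paralogs, so probes may share signal, and the spread of probes is not a spread of independent genes.

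The promoters of this cluster are printed for the 4 tested genes with a RefSeq entry, for PCDHB15, above background on 0 arrays, and for PCDHB1, whose promoter differs. Each is the 100 bases before the gene start in GRCh38.p14, 5′ to 3′, and capitals mark matches to GTGGCGCT.
PCDHB9, chr5:141187061-141187160, + strand: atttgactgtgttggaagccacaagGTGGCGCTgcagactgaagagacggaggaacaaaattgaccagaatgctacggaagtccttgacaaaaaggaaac
PCDHB10, chr5:141192253-141192352, + strand: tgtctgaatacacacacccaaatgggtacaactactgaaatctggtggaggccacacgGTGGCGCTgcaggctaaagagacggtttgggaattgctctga
PCDHB13, chr5:141213819-141213918, + strand: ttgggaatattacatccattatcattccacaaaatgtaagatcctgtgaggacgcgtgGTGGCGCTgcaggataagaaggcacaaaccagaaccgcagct
PCDHB14, chr5:141223243-141223342, + strand: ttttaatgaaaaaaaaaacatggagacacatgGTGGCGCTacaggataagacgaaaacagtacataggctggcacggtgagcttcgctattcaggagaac
PCDHB15, chr5:141245295-141245394, + strand: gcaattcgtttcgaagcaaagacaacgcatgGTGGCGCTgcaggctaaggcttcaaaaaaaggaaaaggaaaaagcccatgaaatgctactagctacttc
PCDHB1, chr5:141051274-141051373, + strand: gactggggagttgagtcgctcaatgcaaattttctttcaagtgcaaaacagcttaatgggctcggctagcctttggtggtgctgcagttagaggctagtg
Clustered protocadherin promoters are known to carry a conserved element that the insulator protein CTCF binds. The motif was chosen after looking at these promoters, was searched on both strands, and its matches are a description of the letters and not of binding. Of the 104 members, 79 had a promoter of 300 bases in the RefSeq table. The motif was found on the gene's own strand in 13 of 14 PCDHB promoters and on the other strand in 0. It started between 1 and 83 bases before the gene start. Among all 35116 promoters of that table, 404, or 1.15%, held it on either strand, and 0 of 13 PCDHA and 0 of 25 PCDHG promoters did. It was present for 4 of 4 tested PCDHB genes and for 9 of 10 untested ones, and since it was picked because these promoters share it, nothing about detection is read from that.

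PCDHB9 and PCDHB19P were above background on all 4 arrays. PCDHB9 had log2 signals of 6.07 and 6.19 in shT7#1 and of 6.64 and 6.23 in shCntrl, separated by a narrow margin, and a difference of -0.30 ± 0.17 log2 units (SE; limma, adjusted p = 0.322). PCDHB19P, a pseudogene, had 5.17 and 5.38 in shT7#1 and 5.37 and 5.27 in shCntrl, with overlap. The pair therefore differed in whether the groups separated, and neither passed.

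PCDHB10 had 4.35 and 4.99 in shT7#1 and 5.11 and 5.46 in shCntrl, with a fitted difference of -0.62 and an adjusted p of 0.185 by limma. PCDHB13 had 4.93 and 5.21 in shT7#1 and 5.37 and 5.74 in shCntrl, with a fitted difference of -0.49 and an adjusted p of 0.161. Each was above background on only 1 shT7#1 array, which leaves the size of these differences uncertain. The pseudogene PCDHB17P had 4.78 and 4.76 in shT7#1, neither above background, and 5.31 and 5.25 in shCntrl. Its bound is 1.24-fold lower in shT7#1 by the group means and without an error. Since PCDHB17P passed the filter through shCntrl alone, its direction was fixed by the filter and no p is read from it. PCDHB14 had overlapping groups and a difference of -0.18.

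**Figure D5:**
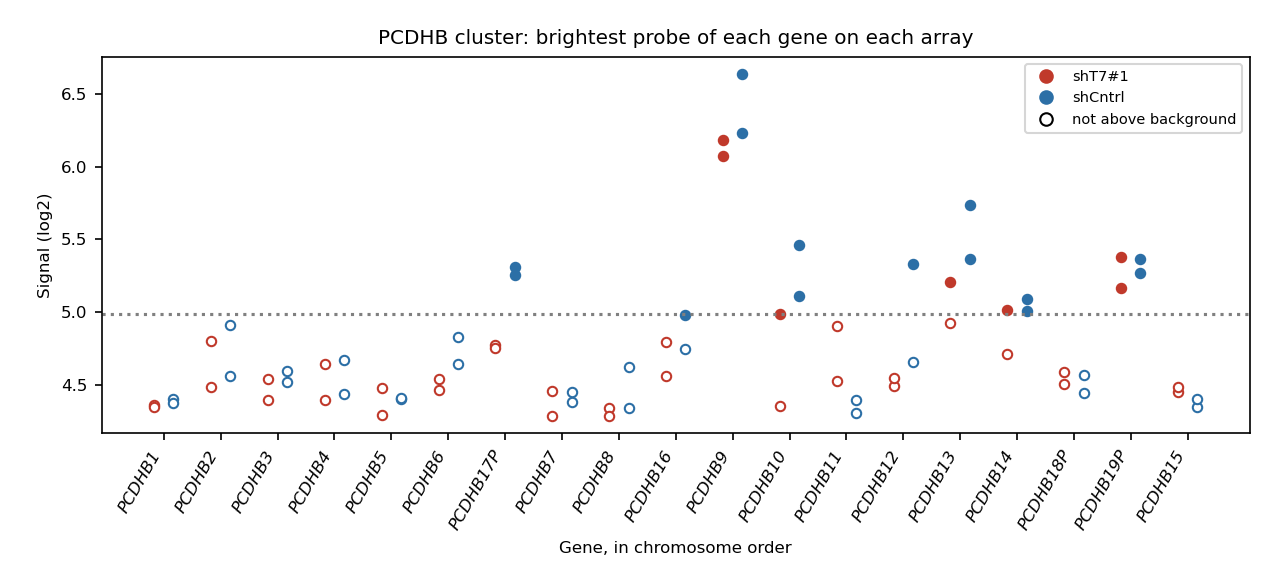
Normalised log2 signal (y axis) of the brightest probe of each PCDHB gene on each array, with genes in chromosome order (x axis), shT7#1 in red at the left and shCntrl in blue at the right of each gene. Filled points are above background and the dotted line is the highest detection floor (4.98). On the 2 shT7#1 arrays fewer points are filled than on the 2 shCntrl arrays.

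In the PCDHG cluster, PCDHGB6 was the gene above background on all 4 arrays, with 6.70 and 6.10 in shT7#1 and 6.57 and 6.47 in shCntrl. Its groups overlapped, and the interval of the difference ran from -0.65 to 0.40 log2 units. PCDHGB1 was above background on both shCntrl arrays and on neither shT7#1 array. Its bound is 1.11-fold lower in shT7#1 by the group means and without an error, again in the direction that the filter fixed. PCDHGC3 and, in the PCDHA cluster, PCDHAC2 had overlapping groups, with differences of -0.10 and 0.11. PCDHA genes share their last exons with each other, as do PCDHG genes, and whether a probe lies in a shared exon is not given in the sources used here.

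Outside the clusters, PCDH7, a protocadherin with a long conserved tail, was the only one of 15 symbols tested. It had 4.73 and 5.23 in shT7#1 and 5.25 and 5.58 in shCntrl, without overlap, and was above background on 3 arrays. The difference was -0.43 ± 0.21 log2 units (SE; limma, adjusted p = 0.270). The authors' deposited table lists 56 of the member symbols, between 0.44-fold for PCDHB12 and 1.91-fold for PCDH15, and here both were above background on at most 1 array.

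Genes that work with cadherins were examined as lists, in which 2 genes rose and 8 fell. Each list is given below with its number of tested genes. Of all tested genes 2.95% were called higher and 3.55% lower, and these shares stand beside every list count below. Nothing particular to a list is read from its count. Each count below comes from the same limma fit, and leaving out any 1 of the 4 arrays ended every one of these calls, with between 83 and 133 of all genes then still called. In the desmosome list, 0 of 9 tested genes rose and 2 fell, beside the 2.95% and 3.55% of all tested genes, and the median was -0.48 log2 units, beside -0.00 for all. PPL, for periplakin, which ties desmosomes to keratin, fell by 1.01 ± 0.20 log2 units (SE; limma, adjusted p = 0.0452), and PERP, a desmosomal membrane protein, fell by 0.60 ± 0.12 (0.0444). DSP, for desmoplakin, DSG2 and DSC2, for desmosomal cadherins, lay at -0.52, -0.48 and -0.59 and did not pass, while the plakophilins PKP4 and PKP2 lay at 0.62 and 0.34.

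Of 9 tested regulators of classical cadherin genes, 1 rose, 1 fell and 7 were not called. Among all tested genes 2.95% rose and 3.55% fell, and the median of the list was -0.11 log2 units. KLF4, a zinc finger factor of epithelia, rose by 1.13 ± 0.14 log2 units (SE; limma, adjusted p = 0.0154). SNAI2, for Slug, a repressor of E-cadherin, had a log2 signal of 9.10 ± 0.12 in shT7#1 and 9.74 ± 0.01 in shCntrl (SD, n = 2 each). It fell by 0.64 ± 0.12 log2 units (SE; limma, adjusted p = 0.0434), beside the CDH1 probe that stayed under the detection floor.

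Of 16 tested genes of the beta-catenin destruction complex and its nuclear partners, 0 rose and 2 fell, with a median of -0.02. AXIN2, a scaffold of that complex and a feedback target of Wnt signalling, fell by 0.93 ± 0.17 log2 units (SE; limma, adjusted p = 0.0387), and the coactivator EP300 fell by 0.56 ± 0.11 (0.0495). Of 22 tested genes of cadherin turnover and trafficking, 0 rose and 2 fell, with a median of -0.13. PTPN1, the phosphatase PTP1B, which acts on catenins at the junction, fell by 0.56 ± 0.11 log2 units (SE; limma, adjusted p = 0.0496), and PIP5K1C, a lipid kinase that sorts E-cadherin, fell by 0.78 ± 0.16 (0.0497).

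Among 20 tested nectins and plaque partners, 0 rose and 1 fell, SORBS2, an actin-linked adaptor, by 0.88 ± 0.16 log2 units (SE; limma, adjusted p = 0.0411), and the median was 0.09. The list of other cadherin branches held FAT, CELSR and calsyntenin genes and also FJX1. Of its 7 tested genes 1 rose and 0 fell, with a median of -0.18, and no tested cadherin of the list was called. The gene that rose was FJX1, a relative of the fly kinase that modifies Fat cadherins and itself no cadherin, by 0.68 ± 0.12 log2 units (SE; limma, adjusted p = 0.0328). Of 13 tested genes for promoter choice and silencing at the protocadherin clusters, CTCF and cohesin subunits included, limma called 0, with 2 at an unadjusted p under 0.05 and a median of -0.05.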

How the data were processed

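Illumina HumanHT-12 v4 bead arrays measured RNA, 2 for each hairpin. The deposited unnormalised table gives 1 signal intensity and 1 detection p-value per probe and array, from GenomeStudio 2011.1 per the submitters' processing notes. A deposited table of log2 values, 1 per symbol, and a table of group means with a linear fold ratio were made by the authors with RMA in ArrayStar, per the file headers; how probes were joined is not given in the sources used here.

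Intensities were corrected here with normexp (background inferred from detection p-values, offset 16), log2 transformed and quantile normalised in limma 3.58.1 (R 4.3.3). Probes with detection p below 0.05 on at least 2 of 4 arrays passed (20366), and the brightest stood for each of 14731 genes. limma was fitted with group as the only term (2 residual and 3.66 prior degrees of freedom), two-sided, with Benjamini-Hochberg adjustment over all genes. The fit code was also run on simulated arrays with independent noise, which checks the code and not the spread between these arrays. Symbols were updated through RefSeq (GRCh38.p14), and 23 probes with date-like symbols were left out. Only 4 arrays limit the precision. Where both arrays of 1 group were at background, the fold is a bound: the other group's mean against the higher of its own signal and the detection floor. Such a bound carries no error and is not a firm minimum.

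Any tested member could be named. Full values were set for CDH1, CDH2, CDH3, CDH11 and the catenins, and called genes of the lists were named. Per-array values of other members, and the uncalled desmosome genes named, were chosen after their values were seen. The members and lists were chosen with earlier results of these data known. The lists cover desmosomes, nectins and plaque partners, turnover, the beta-catenin complex, regulators, other cadherins and protocadherin promoter choice. Alternatives covered background correction, normalisation, filter, probe choice, the authors' values, moderation, a replicate block and leaving out each array.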

Additional observations from a re-analysis of the deposited data

How the results depend on the processing

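The reported fit called 0 members higher and 0 lower. Calls among members appeared without background correction (1 higher, 2 lower, where 16.4% of all genes were called), with a normexp offset of 50 (0 and 2, 13.9%), with detection on all 4 arrays (0 and 1, 12.1%) and with a variance trend and robust moderation (2 and 2, 16.9%). Cyclic loess, median scaling, no detection filter, single probes, averaged probes, the authors' values and every fit without 1 array called 0 members. The authors' values called 8 of 34321 genes in all.

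The replicate numbers are shared between groups only as numbers, and deviations of same-numbered arrays correlated at r = 0.125. The replicate block called 563 genes higher and 676 lower of all, and 0 members either way. For the lists below, the block gave 0 and 1 for the beta-catenin complex, 0 and 1 for turnover, 1 and 2 for desmosomes and 1 and 2 for nectins, with other lists at their reported counts.

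The lists of partner genes moved more, and counts are given as higher and lower. For the beta-catenin destruction complex and nuclear partners the lower count was 3 with the offset of 50, 1 with cyclic loess, median scaling and single probes, and 0 with no detection filter and with the authors' processed values. For cadherin turnover and trafficking the higher count was 1 without background correction and with trend and robust moderation. Its lower count was 1 with median scaling and 0 with no detection filter, single probes and the authors' processed values. For clustered protocadherin promoter choice and silencing the lower count was 1 without background correction. For desmosome genes the higher count was 1 without background correction, with the offset of 50, with detection on all 4 arrays, with averaged probes and with trend and robust moderation. Its lower count was 4 without background correction and with trend and robust moderation, 3 with the offset of 50 and with averaged probes, 1 with median scaling and 0 with no detection filter, single probes and the authors' processed values.

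For nectins and junction plaque partners the higher count was 1 without background correction, with the offset of 50, with cyclic loess, with detection on all 4 arrays, with averaged probes and with trend and robust moderation. Its lower count was 3 without background correction and with trend and robust moderation, 2 with the offset of 50 and with detection on all 4 arrays, and 0 with no detection filter, single probes and the authors' processed values. For other cadherin superfamily genes the higher count was 0 with median scaling and with the authors' processed values. For repressors and activators of classical cadherin genes the higher count was 2 with cyclic loess and with averaged probes, and 0 with the authors' processed values. Its lower count was 2 without background correction and with trend and robust moderation, and 0 with median scaling, no detection filter, single probes, averaged probes and the authors' processed values. Without any 1 array each list count was 0 (lowest 0, highest 0). Fewer arrays enter those fits, and for the other changes the cause was not tested.

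Signs turned for members that were called in neither fit. With the authors' processed values CDH24 was at 0.15, CTNNA1 at -0.043 and CTNNB1 at 0.27 log2 units, and with averaged probes CTNNA1 was at -0.042. With the 4 arrays left out in turn, the log2 difference ran from -0.31 to 0.10 for CDH24, -0.020 to 0.096 for CTNNA1, -0.69 to 0.16 for CTNND1, -0.23 to 0.45 for PCDHAC2, -0.15 to 0.065 for PCDHB19P, -0.43 to 0.18 for PCDHGB6 and -0.22 to 0.030 for PCDHGC3. Signal close to background limits 83 of 104 symbols to no value at all.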
